A study of Mus musculus with 2 samples.

Results

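The 9 transcription factor genes Irf1, Irf4, Irf5, Irf7, Irf8, Irf9, Stat2, Stat3 and Stat4 were taken by their symbols from the 31053 genes counted in leukocytes sorted from mouse GL261 gliomas. Each symbol matched 1 row of the count tables. Droplet-based single-cell RNA sequencing had given 1 library for each of 2 groups, so each difference below sets 1 library beside another. Both groups were male mice aged 8 to 12 weeks, C57BL/6 per the labels and of C57BL/6 J background per the study's methods, and both received diphtheria toxin (DT) on the day before and 4 days after 100000 GL261 cells were placed in the brain. The CD169-DTR group was heterozygous for a DT receptor expressed from the locus of Siglec1, the gene for CD169, so DT can act on CD169+ cells anywhere in the body, and the WT group carried no receptor allele. Cells of 3 mice per group were pooled at day 10, taken from the perfused right hemisphere, enriched on Percoll and sorted as live CD45.2+ cells. The spread between mice is therefore not in these data, no test between the groups was possible, and all intervals printed are 95% intervals for counting error only.

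After keeping barcodes holding 1000 or more unique molecular identifiers (UMIs, each counting 1 captured RNA molecule) and at most 17% mitochondrial UMIs, 10107 WT and 7604 CD169-DTR cells remained, with medians of 7776 and 8099.5 UMIs. The libraries shared 21 cell barcodes, against 11.3 from chance. Clusters were named from marker genes, with the 9 factors left out of the clustering, and the words microglia, macrophages and so on below mean cells like those by their markers. Every marker of each immune class had UMIs in both libraries, except D13Ertd608e in the 11 CD169-DTR plasmacytoid dendritic cells (pDC). The sort also held endothelial cells, which are shown beside the leukocytes. Siglec1 stood at 39.1 CPM (UMIs per 1000000 UMIs of the class) in WT macrophages and 12.7 CPM in CD169-DTR macrophages, and at 19.1 and 5.61 CPM in microglia, so the targeted gene was lower in the library labelled CD169-DTR but was not at 0. Macrophages were 2164 of 9153 WT immune cells and 634 of 6861 CD169-DTR immune cells.

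Interferon regulatory factors (IRFs) and signal transducers and activators of transcription (STATs) carry cytokine signals to the genome. Type I interferon activates a complex in which STAT2 and IRF9 recognise an interferon-stimulated response element (ISRE), interferon-gamma acts through a gamma-activated site (GAS), and IRF7 and IRF1 are themselves products of such responses. IRF8 and IRF4 set lineages of dendritic cells, lymphocytes and, for IRF8, microglia and monocytes, whereas IRF5 serves Toll-like receptor signalling in myeloid cells. STAT3 transmits signals of the interleukin-6 and interleukin-10 families, and STAT4 transmits interleukin-12 in NK and T cells.

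In the GENCODE annotation of GRCm38, Irf1 lies at chr11:53770014-53778374, Irf4 at chr13:30749226-30766976, Irf5 at chr6:29526625-29541871, Irf8 at chr8:120736358-120756694, Irf9 at chr14:55603571-55610030, Stat2 at chr10:128270559-128292849 and Stat4 at chr1:51987148-52107189, each on the plus strand. Irf7 lies at chr7:141262706-141266481 and Stat3 at chr11:100885098-100939540, both on the minus strand. All 9 genes had promoter windows in the RefSeq table of build GRCm38.p6, which corresponds to mm10, the build in the submitters' notes, with 13 windows in all. Each window runs from 250 bases before to 50 bases after an annotated transcript start. Core motifs were searched on both strands as GAAA, any 2 bases and GAAA for the ISRE and as TTCNNNGAA for the GAS, which reads alike on both strands, and no match of one overlapped a match of the other. An ISRE core stood in 2 of the 13 windows and a GAS core in 2, while 3.44% and 8.30% of all 32851 windows held them. The windows with a match are printed for 4 genes. That of Irf7 is set beside them because Irf7, like Stat2, was past 1.5-fold between the libraries in all 7 larger classes. Capitals mark motif matches.
Irf1, chr11:53769764-53770063, plus strand: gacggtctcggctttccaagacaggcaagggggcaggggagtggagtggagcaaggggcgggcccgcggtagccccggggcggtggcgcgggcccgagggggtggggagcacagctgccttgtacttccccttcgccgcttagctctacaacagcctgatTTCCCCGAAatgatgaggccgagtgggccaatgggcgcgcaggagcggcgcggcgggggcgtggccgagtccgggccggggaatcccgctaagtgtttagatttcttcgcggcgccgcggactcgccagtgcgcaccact
Irf8, chr8:120736108-120736407, plus strand: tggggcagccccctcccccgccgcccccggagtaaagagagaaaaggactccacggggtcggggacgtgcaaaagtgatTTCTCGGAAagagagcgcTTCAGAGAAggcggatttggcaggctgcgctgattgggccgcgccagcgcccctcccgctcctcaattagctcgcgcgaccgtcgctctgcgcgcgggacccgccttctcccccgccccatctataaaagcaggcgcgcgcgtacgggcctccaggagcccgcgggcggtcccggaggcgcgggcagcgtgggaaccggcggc
Stat2, chr10:128270248-128270547, plus strand: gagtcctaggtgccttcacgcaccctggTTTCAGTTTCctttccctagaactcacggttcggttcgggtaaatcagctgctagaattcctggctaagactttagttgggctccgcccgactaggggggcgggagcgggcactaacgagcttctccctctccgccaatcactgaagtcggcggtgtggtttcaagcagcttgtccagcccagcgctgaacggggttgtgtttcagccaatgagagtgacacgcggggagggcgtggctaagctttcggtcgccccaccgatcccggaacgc
Stat4, second window, chr1:52007990-52008289, plus strand: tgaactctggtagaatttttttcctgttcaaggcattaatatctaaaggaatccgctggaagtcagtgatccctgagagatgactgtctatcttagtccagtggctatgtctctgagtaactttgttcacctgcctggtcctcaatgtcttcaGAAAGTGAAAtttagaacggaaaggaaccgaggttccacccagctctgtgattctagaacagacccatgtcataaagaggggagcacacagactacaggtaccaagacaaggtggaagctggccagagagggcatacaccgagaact
Irf7, chr7:141266375-141266674, minus strand: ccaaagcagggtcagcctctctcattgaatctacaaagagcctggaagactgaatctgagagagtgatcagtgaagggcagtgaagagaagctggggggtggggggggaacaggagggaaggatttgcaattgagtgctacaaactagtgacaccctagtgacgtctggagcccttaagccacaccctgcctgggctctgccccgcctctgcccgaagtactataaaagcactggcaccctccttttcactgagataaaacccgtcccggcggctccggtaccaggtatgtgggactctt
The GAS core of Irf1 began at base -90 from the start, and those of Irf8 at -171 and -153. The ISRE core of Stat2 began at -222 and that of Stat4 at -97. Neither core occurred in the windows of Irf4, Irf5, Irf7, Irf9 and Stat3, which says only that these letters are absent there. Matches are descriptions of the sequence and not of binding.

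Irf7, the factor that amplifies type I interferon production, had the highest levels in myeloid cells, and its level in WT was above that in CD169-DTR in all 7 classes that held at least 50 cells in each library. In macrophages it stood at 1630 CPM in WT (1611 to 1649) and 687 CPM in CD169-DTR (670 to 705), a log2 ratio of 1.25 (1.21 to 1.29). The median macrophage held 7279 UMIs in WT but 12903 in CD169-DTR, and after thinning each cell to 2000 UMIs an Irf7 UMI was found in 84.7% and 61.8% of them. In Cd209a dendritic cells (Cd209a DC) the levels were 1605 and 639 CPM with a log2 ratio of 1.33 (1.26 to 1.40). Granulocytes held 1469 CPM in WT and 446 CPM in CD169-DTR, a 3.29-fold difference.

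Lymphocytes carried less Irf7 than these myeloid cells and showed the same order of libraries. T cells had 399 CPM in WT and 207 CPM in CD169-DTR, a log2 ratio of 0.95 (0.76 to 1.13). NK cells had 387 and 128 CPM, a log2 ratio of 1.59 (1.24 to 1.97). B cells had 557 and 95.5 CPM, the largest ratio among the 7 classes at 2.54 (2.15 to 2.96), but 1 WT B cell gave 99 of the 308 WT UMIs. Counted as cells with a UMI after thinning every cell to 2000 UMIs, Irf7 was found in 27.4% of WT and 14.2% of CD169-DTR B cells (17.6% to 39.1% and 8.47% to 21.7%), whose intervals overlap.

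Microglia had the lowest Irf7 level of all classes in WT, 351 CPM, and stood at 227 CPM in CD169-DTR, a log2 ratio of 0.63 (0.59 to 0.66). RNA free in the droplets moved with this result, since empty droplets held Irf7 at 818 CPM in WT and 340 CPM in CD169-DTR and could account for 18.2% and 6.73% of the microglial Irf7 UMIs. With that share subtracted the microglial log2 ratio was 0.49, below the 1.5-fold mark (0.58 on the log2 scale) used throughout. In macrophages, where free RNA could account for 4.36% and 1.51%, it was 1.29.

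In 2 small classes the Irf7 intervals of the libraries overlapped. In pDC, professional producers of type I interferon, Irf7 stood at 965 CPM in 102 WT cells and 973 CPM in 11 CD169-DTR cells. Migratory dendritic cells had 978 CPM in 149 cells and 933 CPM in 15 cells, and the intervals of both ratios included 0 (-0.27 to 0.26 for pDC and -0.13 to 0.27 for migratory cells). Endothelial cells, which are not leukocytes, had 673 and 579 CPM, a log2 ratio of 0.22 (0.13 to 0.30). Xcr1+ conventional dendritic cells (cDC1) led WT with 1809 CPM in 189 cells. They also had the top value in CD169-DTR, 1124 CPM in 32 cells, but that interval overlapped the one of pDC.

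**Figure D1:**
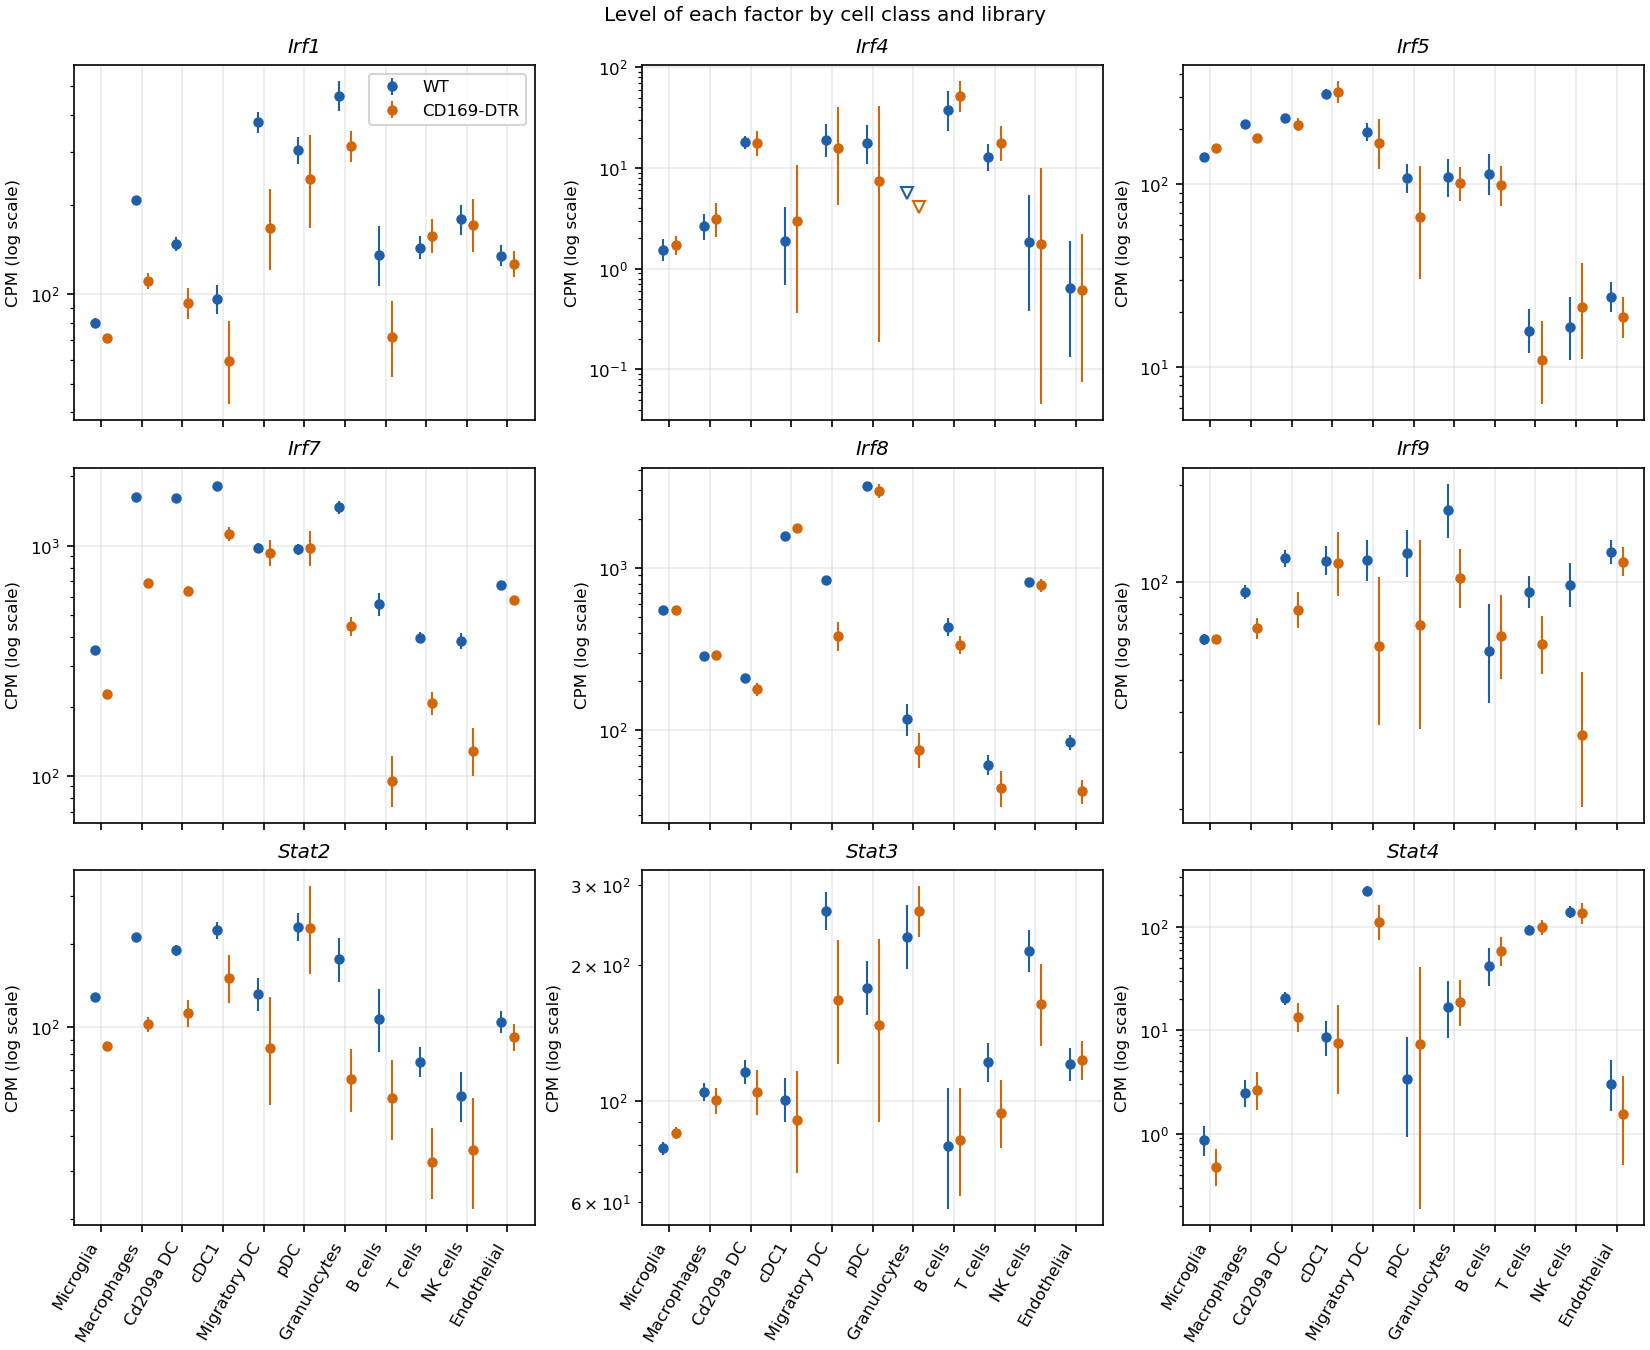
Level of each of the 9 factors as CPM of the summed UMIs (log scale, scales differ between panels) in 10 immune classes and in endothelial cells, with 1 point per library and bars for the 95% Poisson interval. Open triangles give the upper bound where no UMI was found, as for Irf4 in granulocytes. Irf7 was higher in WT in macrophages, Cd209a DC and granulocytes but not in pDC, and Irf8 was highest in pDC in both libraries.

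Stat2, the partner of IRF9 in the type I interferon complex, ordered the libraries as Irf7 did but with smaller ratios in macrophages, Cd209a DC and granulocytes. Macrophages had 211 CPM in WT and 102 CPM in CD169-DTR, a log2 ratio of 1.05 (0.94 to 1.15). Cd209a DC had 190 and 112 CPM (0.76, 0.59 to 0.94), and granulocytes had 176 and 64.4 CPM (1.45, 0.98 to 1.93). T cells had 74.6 and 32.2 CPM, a ratio of 1.21 (0.76 to 1.69). Microglia had 128 and 85.2 CPM, a log2 ratio of 0.59 (0.53 to 0.64), which sits on the 1.5-fold mark.

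The remaining lymphocyte values of Stat2 rested on few UMIs. In NK cells 91 and 20 UMIs gave 56.0 and 35.6 CPM, and the interval of the log2 ratio, 0.65, included 0 (-0.06 to 1.43). In B cells 59 and 37 UMIs gave a ratio of 0.95 (0.33 to 1.59), which was 0.15 when every cell had equal weight. In pDC the level was 231 CPM in WT and 229 CPM in CD169-DTR, the highest Stat2 level of any class in each library. Its interval overlapped that of cDC1 in both libraries, and in WT also those of macrophages and granulocytes.

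Irf9, the DNA-binding part of the same complex, did not follow Stat2 in every class. Microglia had 66.8 CPM in WT and 66.7 CPM in CD169-DTR, and their log2 ratio was 0.00 (-0.07 to 0.07). Macrophages had 93.4 and 72.2 CPM (0.37, 0.24 to 0.50), where the log2 ratio of Stat2 was 1.05. NK cells had the largest Irf9 difference of the 7 classes, with 98.4 and 33.8 CPM and a log2 ratio of 1.54 (0.85 to 2.31), although the CD169-DTR value rested on 19 UMIs. Granulocytes reached 167 and 103 CPM, a ratio of 0.69 (0.28 to 1.11). The Irf9 gene overlaps Rnf31 on the same strand, so the way overlapping reads were assigned could affect its counts.

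Irf1, an early product of interferon-gamma and type I interferon signalling, differed in macrophages but hardly in microglia. Macrophages had 207 CPM in WT and 111 CPM in CD169-DTR (log2 ratio 0.91, 0.81 to 1.01). Microglia had 80.1 and 71.0 CPM (0.17, 0.11 to 0.24). Cd209a DC had 147 and 93.3 CPM, a ratio of 0.66 (0.47 to 0.85) that was 0.44 with equal weight per cell. T cells had 143 and 157 CPM and NK cells 178 and 171 CPM, and both intervals included 0 (-0.36 to 0.10 and -0.28 to 0.41), where the log2 ratios of Irf7 were 0.95 and 1.59. In B cells the log2 ratio of 0.92 turned to -0.29 without predicted doublets, and 1 cell held 21 of the 75 WT UMIs.

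Irf1 was highest in granulocytes in both libraries, at 465 CPM in WT and 314 CPM in CD169-DTR, followed in WT by migratory dendritic cells at 379 CPM and pDC at 304 CPM. In CD169-DTR the intervals of granulocytes, pDC, NK cells and migratory cells overlapped in turn. Microglia were the lowest of the 7 larger classes in both libraries, but in CD169-DTR their interval overlapped that of B cells (71.0 and 71.6 CPM).

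Irf8, which directs cDC1, pDC, B cell and microglial identity, marked lineage and separated the libraries little. The level went from 3191 CPM in WT pDC and 1572 CPM in cDC1 to 823 CPM in NK cells, 549 CPM in microglia, 434 CPM in B cells, 286 CPM in macrophages and 61.4 CPM in T cells, and each of these steps was larger than the intervals. CD169-DTR cells had 2986, 1773, 784, 547, 336, 291 and 43.9 CPM in the same order, with overlapping intervals for B cells and macrophages. The log2 ratio was 0.00 in microglia (-0.02 to 0.03) from 23584 and 28477 UMIs, and -0.03 in macrophages (-0.10 to 0.04). NK cells gave 0.07 (-0.09 to 0.23).

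Some Irf8 values did differ between libraries. Migratory dendritic cells had 844 CPM in 149 WT cells and 383 CPM in 15 CD169-DTR cells. Granulocytes had 117 and 75.5 CPM, a log2 ratio of 0.63 that was 0.09 without predicted doublets. Free RNA could account for 55.4% of Irf8 UMIs in WT granulocytes and 51.8% in WT T cells, so these low levels are not read as expression. The Irf8 gene overlaps Gm20388 on the same strand.

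Irf4, which supports B cells, plasma cells, activated T cells and CD11b+ dendritic cells, was sparse. B cells led with 38.0 CPM in WT and 52.2 CPM in CD169-DTR, from 21 and 35 UMIs. In both libraries their interval overlapped those of migratory dendritic cells (19.1 and 15.9 CPM) and pDC (17.7 and 7.37 CPM). Cd209a DC had 18.1 and 17.8 CPM and T cells 12.9 and 17.8 CPM. Macrophages were at 2.65 and 3.09 CPM, and granulocytes had no UMI in either library, where the limit that a count of 0 allows (3 UMIs) was 4.55 and 3.33 CPM. After thinning, 8.22% of WT and 14.2% of CD169-DTR B cells had an Irf4 UMI, with overlapping intervals, against 0.389% and 0.302% of microglia (medians of 4487 and 4125 UMIs in B cells, and of 7658 and 7893 in microglia, before thinning). The interval of the log2 ratio of Irf4 included 0 in each of the 6 larger classes with counts.

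Irf5, a factor of inflammatory cytokine induction in myeloid cells, was highest in cDC1 with 313 CPM in WT and 319 CPM in CD169-DTR. Cd209a DC followed with 231 and 212 CPM and macrophages with 212 and 178 CPM (log2 ratio 0.25, 0.17 to 0.34). Microglia went the other way by a small amount, with 141 and 158 CPM (-0.17, -0.22 to -0.12). In T and NK cells the 10.98 to 21.4 CPM of Irf5 rested on few UMIs, and free RNA could account for 87.4% and 91.6% of them in T cells and for 118% and 46.8% in NK cells of WT and CD169-DTR.

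Stat3 varied little among classes, with a 2.93-fold range in WT over the 7 larger classes, where Irf9 had a 2.72-fold range. Granulocytes had 231 CPM in WT and 262 CPM in CD169-DTR, and NK cells had 215 and 164 CPM (0.39, 0.05 to 0.74). Macrophages had 105 and 100 CPM (0.06, -0.05 to 0.18), and microglia had 78.7 and 85.2 CPM (-0.11, -0.18 to -0.05). No class of the 7 as a whole reached a 1.5-fold difference in Stat3, though CD4 T cells within the T cells did (172 and 70.3 CPM). Outside the 7, migratory dendritic cells had 263 CPM in 149 WT cells and 167 CPM in 15 CD169-DTR cells (0.65, 0.19 to 1.14). Theirs was the top WT value, with an interval that overlapped that of granulocytes.

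Stat4 separated lymphocytes and migratory dendritic cells from the other cells. Migratory dendritic cells had 221 CPM in WT and 112 CPM in CD169-DTR. NK cells had 138 and 135 CPM (0.03, -0.35 to 0.43) and T cells 93.5 and 98.1 CPM (-0.07, -0.36 to 0.22). Microglia had 0.86 and 0.48 CPM from 37 and 25 UMIs, and free RNA could supply as many UMIs as the 37 in WT. After thinning, a Stat4 UMI was found in 23.8% of WT and 24.4% of CD169-DTR NK cells and in 0.173% and 0.0189% of microglia. It overlaps Gm28177 on the same strand.

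The members past the 1.5-fold mark in a class were all higher in WT. Genes with at least 50 UMIs in the class over both libraries were counted. In microglia 3 of 9 members were past the mark (Irf7, Stat2 and the sparse Stat4), against 2.39% of all genes. Stat2 alone was left with free RNA subtracted, and Stat4 alone with the same cluster weights in both libraries. Free RNA could account for 103% of the WT Stat4 UMIs in microglia. In macrophages 3 of 9 were past the mark (Irf7, Stat2 and Irf1), against 7.61%. Cd209a DC had 4 of 9 with Stat4 the fourth, against 8.18%, and granulocytes 4 of 7 (Irf7, Stat2, Irf9 and Irf8), against 11.2%, of which Irf8 fell below the mark without predicted doublets (0.09), with free RNA subtracted (0.42) or with equal weight per cell (0.49). B cells had 3 of 9 (Irf7, Stat2 and Irf1) against 10.9%, T cells 2 of 9 (Stat2 and Irf7) against 12.1%, and NK cells 3 of 7 (Irf7, Irf9 and Stat2) against 7.55%. No member was 1.5-fold higher in CD169-DTR in any of the 7, where the share of all genes was 2.34% in microglia, 5.39% in macrophages, 6.89% in Cd209a DC, 14.0% in granulocytes, 10.3% in B cells, 3.76% in T cells and 5.83% in NK cells.

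At a 2-fold mark fewer members were counted, all higher in WT. Microglia had 0 of 9 (0.889% of all genes), macrophages 2 of 9 with Irf7 and Stat2 (2.81%) and Cd209a DC 1 of 9 with Irf7 (2.64%). Granulocytes had 2 of 7 with Irf7 and Stat2 (4.22%), B cells 1 of 9 with Irf7 (4.37%), T cells 1 of 9 with Stat2 (4.02%) and NK cells 2 of 7 with Irf7 and Irf9 (2.15%). Medians over the measured members were 0.00 in microglia and 0.25 in macrophages, beside -0.04 and -0.03 over all genes.

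**Figure D2:**
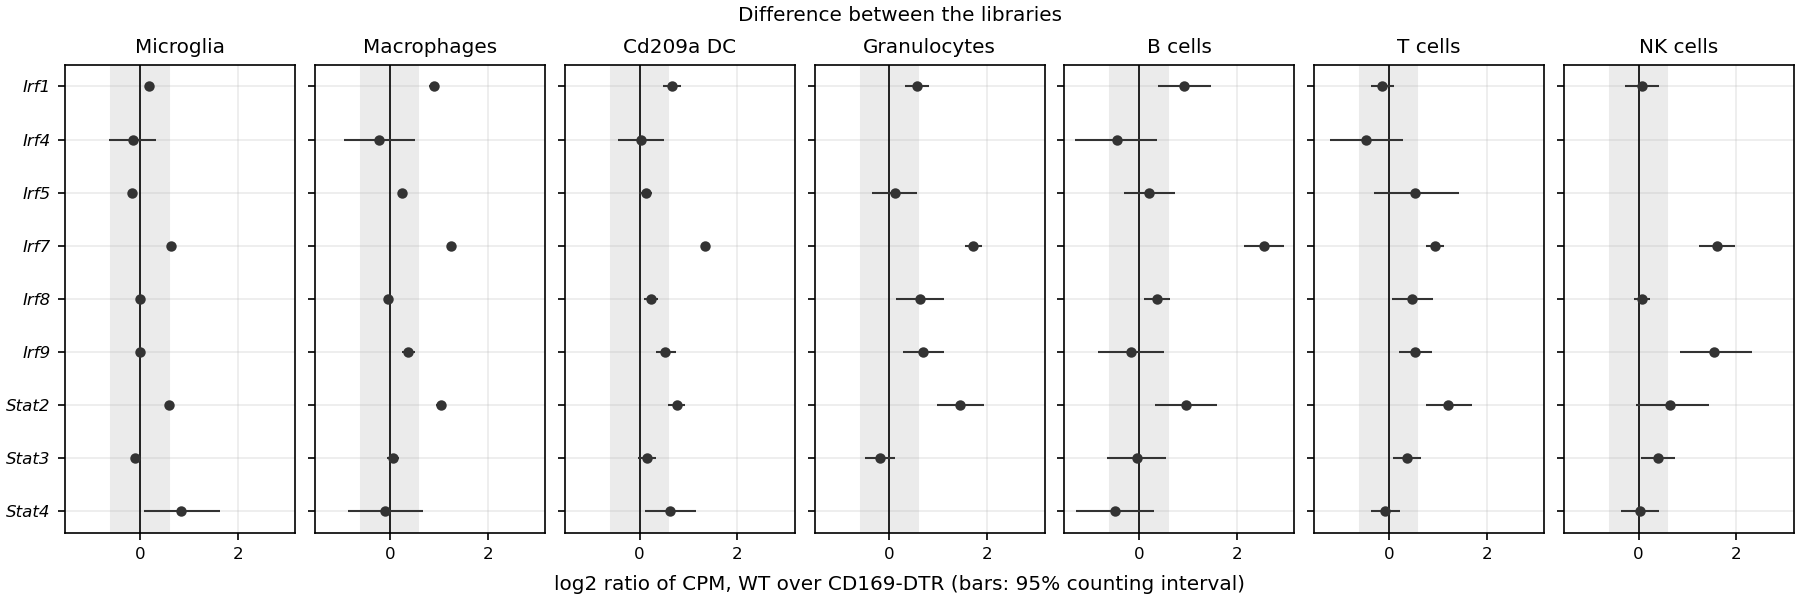
Log2 ratio of CPM in WT over CD169-DTR for each factor in the 7 classes with at least 50 cells in each library, with bars for the 95% counting interval and a grey band for differences under 1.5-fold. Factors with fewer than 50 UMIs in a class are not drawn. Irf7 lies right of the band in all 7 classes, and Irf8 and Stat3 lie within it in microglia and macrophages.

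Macrophages and microglia were made of different mixtures of clusters in the 2 libraries, so the factors were also read cluster by cluster. The 3 macrophage clusters were led by Slfn4 and Ly6c2 (1004 WT and 162 CD169-DTR cells), by Chil3 and Clec4e (731 and 240) and by Gpnmb and Fabp5 (429 and 232). The Gpnmb Fabp5 cluster matched the list for border-associated macrophages best, with 5 of its 8 markers, and the macrophage class here takes in that list as well as the macrophage list. Irf7 went down in this order in WT, at 2626, 1567 and 667 CPM, and in CD169-DTR, at 1416, 843 and 370 CPM. Its log2 ratios were 0.89, 0.89 and 0.85, below the 1.25 of the whole class. With both libraries given the same cluster weights, the macrophage ratio was 0.89 for Irf7, 0.62 for Stat2 and 0.58 for Irf1, the last just under the mark.

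Stat2 in the 3 macrophage clusters stood at 325, 209 and 94.4 CPM in WT and at 228, 121 and 52.7 CPM in CD169-DTR. Irf1 stood at 263, 242 and 94.2 CPM in WT and at 195, 133 and 71.1 CPM in CD169-DTR, with intervals above 0 in all 3 clusters. Irf8 went from 313 to 234 and 337 CPM in WT and from 291 to 238 and 327 CPM in CD169-DTR, and none of its 3 intervals left out 0. A further cluster led by Ear2 and Ace, which passed no class's marker rule and has no name here, had Irf1 at 260 and 201 CPM with Irf7 at 277 and 176 CPM.

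Among the 9 microglial clusters, Irf7 and Stat2 were higher in WT in 9 of 9, each with an interval above 0. These cluster values were not corrected for free RNA, which could account for 18.2% and 6.73% of the Irf7 UMIs of all WT and CD169-DTR microglia. That share would be larger in clusters with few Irf7 UMIs a cell, where the order of the libraries was not tested without it. The lowest level was in the cluster led by P2ry12, a receptor of homeostatic microglia, with Irf7 at 85.7 and 57.4 CPM and Stat2 at 62.5 and 45.0 CPM. The highest was in the cluster led by Cxcl13, Cxcl10 and Ifnb1, with Irf7 at 757 and 591 CPM and Stat2 at 292 and 247 CPM. In that cluster the log2 ratios were 0.36 (0.28 to 0.43) and 0.24 (0.13 to 0.36). The cluster led by Spp1 and Igf1 had the largest ratios, 0.79 for Irf7 (0.69 to 0.90) and 0.97 for Stat2 (0.73 to 1.22). Only 2 of the 9 ratios reached 1.5-fold for each gene, and with the same cluster weights the microglial ratio was 0.49 for Irf7 and 0.45 for Stat2.

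Other members moved with other microglial clusters. Irf5 and Stat3 were highest in the cluster led by the cytokine and immediate-early genes Il1a and Atf3, with Irf5 at 222 and 276 CPM and Stat3 at 175 and 197 CPM. Irf8 ranged from 470 to 714 CPM in WT and from 426 to 632 CPM in CD169-DTR, highest in cells led by the mitotic genes Ccnb2 and Cdkn3 in both libraries. Irf9 stayed between 49.7 and 78.3 CPM in all 9 clusters, and 0 of its 9 intervals left out 0.

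**Figure D3:**
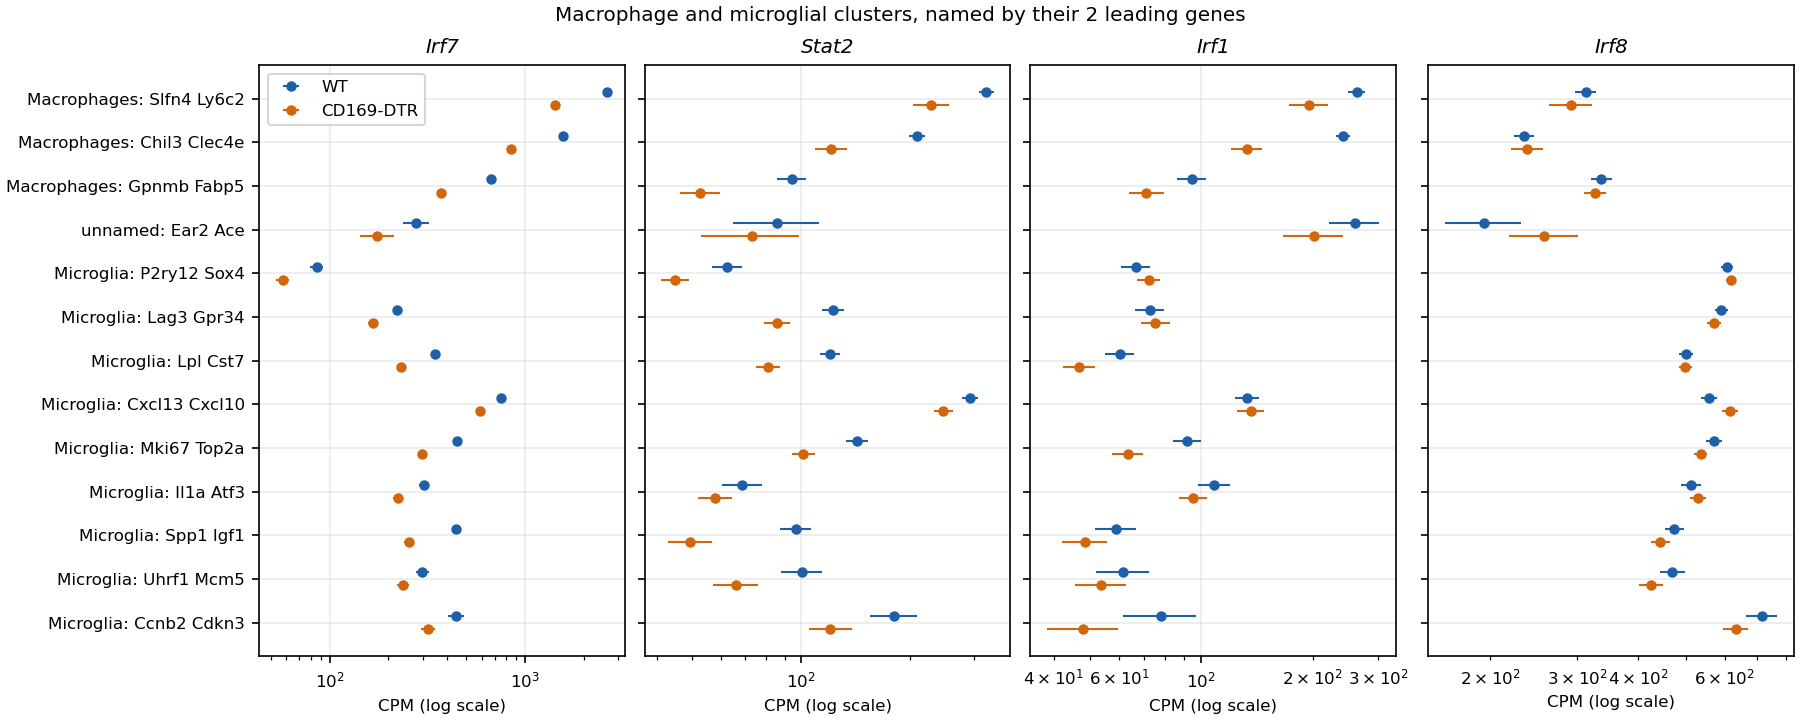
Level of Irf7, Stat2, Irf1 and Irf8 as CPM (log scale) in the 3 macrophage clusters, the unnamed Ear2 Ace cluster and the 9 microglial clusters, with 1 point per library and 95% Poisson bars. With free RNA not subtracted, Irf7 is higher in WT in each cluster drawn, with the highest values in the Slfn4 Ly6c2 macrophages. Irf8 is higher in every microglial than in every macrophage cluster.

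The T cells were divided by their markers into CD8 T cells (205 WT and 88 CD169-DTR cells), CD4 T cells (134 and 76) and smaller sets. One of these (45 and 31 cells) was led by Calca, Il13, Areg, Il5 and Il1rl1, genes of group 2 innate lymphoid cells, together with the regulatory T cell genes Foxp3 and Ctla4, so the T cell class was not made of T cells alone. CD8 T cells had Irf7 at 471 and 269 CPM (0.81, 0.58 to 1.04) and CD4 T cells at 383 and 107 CPM (1.85, 1.39 to 2.33). Stat2 in CD4 T cells stood at 94.7 and 13.6 CPM from 64 and 6 UMIs, and in CD8 T cells at 71.6 and 47.5 CPM. Stat4 was at 87.6 and 110 CPM in CD8 and at 126 and 65.7 CPM in CD4 T cells, which had intervals of -0.73 to 0.07 and of 0.31 to 1.60.

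Stat3 and Irf9, under the mark in the T cell class, were past it in CD4 T cells. Stat3 stood at 172 and 70.3 CPM from 116 and 31 UMIs (1.29, 0.71 to 1.91) and Irf9 at 111 and 43.1 CPM from 75 and 19 UMIs (1.37, 0.62 to 2.18). Irf8 had 31 and 2 UMIs there, in a class where free RNA could account for 51.8% of the WT Irf8 UMIs. The set with innate lymphoid cell genes went the other way for Irf1, at 106 CPM in WT and 222 CPM in CD169-DTR from 60 and 46 UMIs (-1.07, -1.65 to -0.48), although 1 CD169-DTR cell gave 15 of the 46.

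To read the factors against interferon response inside a class, macrophages and microglia were thinned to 2000 UMIs and ranked within each library by their summed UMIs of 32 type I interferon-induced genes, from which the 9 members were left out, and split into 5 equal groups called quintiles. In WT macrophages Irf7 went from 511 CPM in the bottom quintile through 1169, 1880 and 2391 to 3581 CPM in the top quintile. CD169-DTR macrophages went through 187, 250, 620, 1171 and 2004 CPM. WT microglia went from 43.2 to 693 CPM and CD169-DTR microglia from 20.8 to 503 CPM. Every step was upward in these 4 sets of cells. The levels were not corrected for free RNA, which could account for 18.2% and 6.73% of all Irf7 UMIs in WT and CD169-DTR microglia. Its share would be larger in the bottom quintiles, where Irf7 is low, and was not tested there.

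Stat2 followed the same rank. It went from 71.3 to 404 CPM in WT macrophages and from 39.7 to 304 CPM in CD169-DTR macrophages, and from 30.8 to 259 CPM and from 25.5 to 192 CPM in microglia. Irf1 went from 120 to 354 CPM and from 59.5 to 252 CPM in macrophages of the 2 libraries, but its gain in microglia was smaller, from 55.6 to 132 CPM in WT and from 68.5 to 112 CPM in CD169-DTR. Irf8 did not follow the rank, with 300 and 283 CPM in the bottom and top quintiles of WT macrophages and 600 and 593 CPM in those of WT microglia. The interval of its top to bottom ratio included 0 in all 4 sets, but at 4500 UMIs a cell it was below 0 in WT macrophages (-0.28, -0.49 to -0.07).

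Irf9 had 64.8 and 67.0 CPM in the bottom and top quintiles of WT microglia and 82.1 and 108 CPM in those of WT macrophages. In CD169-DTR macrophages it went from 75.4 to 120 CPM on 19 and 30 UMIs, and the interval of its ratio included 0 in all 4 sets. With cells thinned to 4500 UMIs instead, the Irf9 ratio was above 0 in CD169-DTR macrophages (0.99, 0.33 to 1.67) and CD169-DTR microglia (0.40, 0.17 to 0.64), and its interval still included 0 in both WT sets. Irf5 went from 147 to 228 CPM in WT macrophages but was lower in the top quintile of microglia, at 198 against 143 CPM in WT and 204 against 137 CPM in CD169-DTR. Stat3 had intervals that included 0 in all 4 sets, and at 4500 UMIs was lower at the top in CD169-DTR microglia (-0.27, -0.48 to -0.06). Between top and bottom quintiles, 3 of 7 measured members were 1.5-fold higher at the top in WT microglia (13.2% of all genes), 3 of 7 in CD169-DTR microglia (12.7%), 4 of 7 in WT macrophages (16.7%) and 3 of 6 in CD169-DTR macrophages (21.4%). None was 1.5-fold higher at the bottom, as were 22.4% and 18.9% of all genes in WT and CD169-DTR microglia, and 32.3% and 15.2% in WT and CD169-DTR macrophages.

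Ranking by the interferon-gamma list in place of the type I list moved 15 of 27 of these values beyond their intervals. Irf7 was still higher at the top, with log2 ratios of 0.82 and 1.52 in WT and CD169-DTR macrophages and of 1.74 and 2.06 in microglia. Stat2 fell below the mark in WT macrophages (0.40, 0.07 to 0.74) but not in CD169-DTR macrophages (0.90) or in microglia (1.63 and 1.58). Irf1 was below the mark in macrophages of both libraries (0.57 and 0.48). Irf8 was lower at the top in WT macrophages (-0.32, -0.59 to -0.06), and the Irf5 ratio in WT microglia was 0.08 (-0.16 to 0.32). Several of these values changed with cells thinned to 4500 UMIs instead. In WT macrophages Stat2 (1.06, 0.77 to 1.34) and Irf1 (0.69, 0.43 to 0.95) were then past the mark. Irf1 in CD169-DTR macrophages stayed below it (0.46). Irf8 was no longer clearly lower at the top in WT macrophages (-0.14, -0.34 to 0.07), but was in CD169-DTR macrophages (-0.44, -0.80 to -0.09). Irf5 was lower at the top in WT microglia (-0.23, -0.41 to -0.06).

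The quintiles of the 2 libraries did not hold the same number of interferon-induced UMIs, which allowed some levels to be set side by side at a like rank value, a choice made after the values were seen. The second WT macrophage quintile had a median of 24 such UMIs a cell and the fourth CD169-DTR quintile 27, and Irf7 stood at 1169 CPM and 1171 CPM in them. Stat2 stood at 137 and 210 CPM in the same quintiles. The third WT microglial quintile had a median of 13 and the fourth CD169-DTR quintile 14, where Irf7 stood at 273 and 248 CPM and Stat2 at 111 and 104 CPM.

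**Figure D4:**
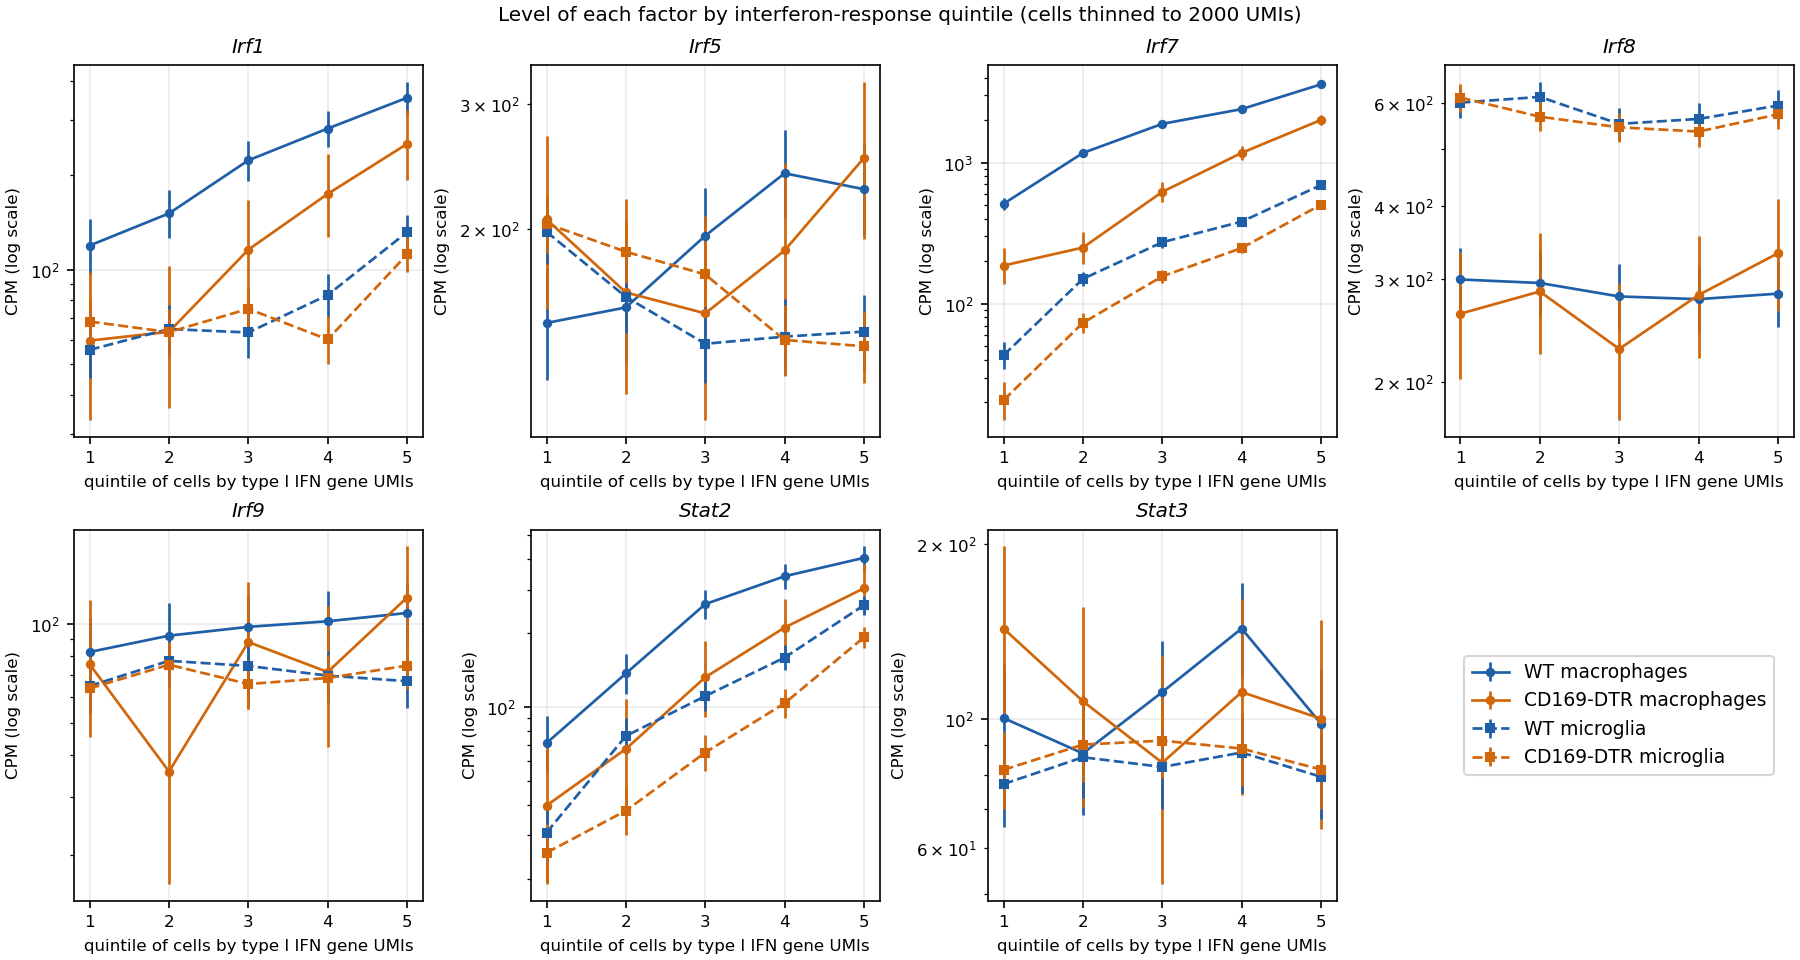
Level of 7 factors as CPM (log scale, scales differ between panels) in quintiles of macrophages (solid lines) and microglia (dashed lines), ranked in each library by UMIs of type I interferon-induced genes after thinning to 2000 UMIs, with 95% Poisson bars. Irf7 and Stat2 go up at every step in all 4 sets of cells, and Irf8 has overlapping bars in the bottom and top quintile of each set.

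Since Siglec1 encodes CD169, cells with and without a Siglec1 UMI were compared, the UMI being looked for in the whole cell and the factors read after thinning to 2000 UMIs. In whole cells the UMI was found in 24.1% of WT and 14.5% of CD169-DTR macrophages and in 13.2% and 4.61% of microglia. T cells, which should lack the gene, had it in 0.466% and 0.478%, at medians of 6282 and 6349 UMIs a cell. After thinning, the shares were 9.10% and 2.39% of macrophages and 3.20% and 0.869% of microglia, beside 0.244% of WT T cells and none of 203 CD169-DTR T cells, which allows up to 1.48%. Free RNA could account for 2.92% and 1.38% of the Siglec1 UMIs in macrophages and for 5.39% and 4.58% in microglia, and its part in the split was not tested. In WT macrophages the 511 cells with a Siglec1 UMI had Irf7 at 2193 CPM and the 1556 without had 1812 CPM (log2 ratio 0.28, 0.20 to 0.35). Stat2 was at 290 and 228 CPM (0.35, 0.15 to 0.55), Irf8 at 320 and 276 CPM (0.21, 0.02 to 0.40) and Irf1 at 245 and 220 CPM (0.15, -0.06 to 0.36). None of the 7 measured members reached 1.5-fold, against 3.85% of all genes higher in cells with and 4.7% higher in cells without a Siglec1 UMI. In CD169-DTR macrophages the 92 cells with a Siglec1 UMI had 1130 CPM of Irf7 and the 536 without had 796 CPM, and again 0 of 7 members reached 1.5-fold (6.14% of all genes higher with and 13% higher without). Before thinning, the CD169-DTR macrophages had medians of 16244 UMIs with and 12434 UMIs without a Siglec1 UMI.

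The gap was wider in microglia. The 624 WT microglia with a Siglec1 UMI had Irf7 at 515 CPM and the 4005 without at 276 CPM (0.90, 0.77 to 1.03), and Stat2 stood at 186 and 118 CPM (0.66, 0.44 to 0.87). In CD169-DTR, 246 cells with and 5045 without had Irf7 at 370 and 192 CPM (0.95) and Stat2 at 130 and 82.6 CPM (0.66). Irf5 was lower in the CD169-DTR cells with a Siglec1 UMI, at 102 against 171 CPM, but not in the WT cells, at 151 against 157 CPM. Irf7 and Stat2, 2 of 7 measured members in each library, compare with 6.04% of all genes in WT and 9.57% in CD169-DTR. In the other direction 0 of 7 members were 1.5-fold lower with a Siglec1 UMI in WT (11.4% of all genes) and 2 of 7, Irf5 and Stat3, in CD169-DTR (19.2%). Neither held at 4500 UMIs, where Irf5 stood at 111 and 165 CPM (-0.58, just under the mark) and Stat3 at 81.3 and 85.4 CPM (-0.07), while Irf7 and Stat2 stayed past the mark in both libraries. A Siglec1 UMI is more easily found in a deeper cell, and before thinning the medians were 10916 UMIs in WT microglia with and 7260 in those without.

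The other genes of these pathways were read from a list of 28 receptors, kinases, inhibitors, family members and partners. In macrophages 5 of 25 measured genes were 1.5-fold higher in WT (7.61% of all genes) and none in CD169-DTR (5.39%), with a median log2 ratio of 0.17. The 5 were the feedback inhibitors Usp18 (297 and 118 CPM) and Socs1 (100.4 and 43.2 CPM), the kinase gene Jak2 (63.6 and 34.9 CPM), Irf2 (153 and 100.1 CPM) and Irf2bp2 (352 and 191 CPM). The interferon receptor genes did not reach the mark: Ifnar1 had 113 and 89.9 CPM, Ifnar2 147 and 155 CPM, and Ifngr1 178 and 226 CPM. In microglia 2 of 27 genes were past it (2.39% of all genes), Usp18 (170 and 104 CPM) and the sparse Il12rb1 (1.14 and 0.615 CPM). In T cells 6 of 25 were higher in WT (12.1% of all genes) and 2 in CD169-DTR (3.76%), the receptor genes Il6st (20.9 and 40.5 CPM) and Il6ra (23.5 and 36.4 CPM). Granulocytes had 3 of 19 higher in WT (11.2%) and 2 in CD169-DTR (14.0%), Stat5b (30.4 and 47.8 CPM) and Batf (51.6 and 77.7 CPM). The counts higher in WT were 4 of 25 in Cd209a DC (8.18%), 4 of 15 in B cells (10.9%) and 3 of 20 in NK cells (7.55%), with none higher in CD169-DTR in these 3 classes. Usp18 also belongs to the type I interferon-induced list and Socs1 to the interferon-gamma list. For comparison, 30 of 32 type I interferon-induced genes were 1.5-fold higher in WT macrophages (median 1.20, against 7.61% of all genes) and 15 of 32 in WT microglia (median 0.56, against 2.39%), and for 24 measured genes of an interferon-gamma list the counts were 17 and 13.

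The genes whose pattern was most like each member were searched by the correlation of log2(CPM + 1) over 17 points, each a class in a library with at least 50 cells, among 9727 genes. The points share libraries and depth, so the values are descriptions. Irf7 was most like Ogfr (r = 0.96), Slfn5 (0.93) and Trafd1 (0.92). Stat2 was most like Fmnl2 (0.89), Ifi211 (0.88) and Ifi207 (0.88), and Irf9 like Slfn5 (0.82), Otud5 (0.81) and Irgm1 (0.81). Irf5 was like Sgk3 (0.95) and Tbc1d9 (0.93). Stat4 was most like Akap13 (0.93), Stk24 (0.92) and Pdcd1lg2 (0.91).

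For the remaining members the best matches were lower than those of Irf7, Irf5 and Stat4. Irf1 was most like Clec2d (0.89), Usp25 (0.85) and Prr13 (0.84), and Stat3 like Pnpla2 (0.89), Cox17 (0.88) and Tle3 (0.86). Irf4 was most like Map3k1 (0.85), Ppdpf (0.84) and Foxp1 (0.84). Irf8 had the weakest match, with Lrrk1 (0.80), Map4k5 (0.77) and Tyk2 (0.75). Among the members themselves, Irf7 and Stat2 were the most alike (r = 0.87), next to Irf1 and Stat3 (0.86), while Irf7 and Irf8 were at 0.15.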

How the data were processed

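UMI counts per gene and barcode were used as deposited by the authors, who had made them with Cell Ranger 3.1.0 against mm10 from 10x 3' libraries of pooled mice; all barcodes were kept in those tables, and the counts were not normalized. A barcode counted as a cell from 1000 UMIs upward, provided mitochondrial genes gave no more than 17% of them. The libraries were integrated and clustered in Seurat 5.3.0 (2000 variable features without the 9 members, resolution 1), and clusters were named from marker lists with thresholds set after the data were seen. T and NK cells were clustered again, and 85 WT and 15 CD169-DTR cells of mixed sub-clusters were left out. Doublets were kept, and Scrublet (scanpy 1.11.5) removal was an alternative. Levels are CPM of UMIs summed over a class, with exact Poisson intervals, exact conditional intervals for ratios and exact Clopper-Pearson intervals for shares, from scipy 1.17.1. With 1 library per group, a 1.5-fold difference was the mark and no test was run. The named genes were the members, the genes of fixed lists and the 3 genes most correlated with each member, of which 1 is not reported here. The members and lists were chosen with earlier results of these data known. Total UMIs were 101808996 in WT and 84065489 in CD169-DTR. Each group is 1 library, so the intervals do not cover differences between mice.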

Additional observations from a re-analysis of the deposited data

How the results depend on the processing

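Of 62 log2 ratios of a member in a class, 22 were past 1.5-fold, and 224 of their 225 values under the alternatives kept the sign while 204 stayed past the mark. Among those 225, the exception in sign was Irf1 in B cells, at -0.29 without predicted doublets. Stat4 in microglia has no value among them with free RNA subtracted. Free RNA could account for 103% of its 37 WT UMIs and 53.5% of its 25 CD169-DTR UMIs. The number of members 1.5-fold higher in WT changed by over 1.5 times as follows. At a 2-fold mark it was 0 in microglia, 1 in Cd209a DC, B cells and T cells, and 2 in granulocytes. In microglia it was 1 with free RNA subtracted (Stat2) and 1 with the same cluster weights in both libraries (Stat4). With equal weight per cell it was 2 in Cd209a DC, 1 in B cells and 4 in T cells. The number 1.5-fold higher in CD169-DTR went from 0 to 1 in microglia and macrophages with free RNA subtracted, in macrophages and T cells with equal weight per cell, and in B cells without integration or without predicted doublets. Smaller changes left 2 in macrophages at a 2-fold mark or with the same cluster weights, 2 in microglia under 4 alternatives (resolution 0.5 or 2, at most 10% mitochondrial UMIs, doublets removed), 3 in Cd209a DC under 2, 3 to 5 in granulocytes, 2 in B cells without doublets, 3 in T cells under 3 and 2 in NK cells under 3. The cause of these changes was not tested. Stat2 in microglia was between 0.45 and 0.58 under the 5 alternatives that took it below the mark. No paired analysis was possible because each group is 1 library, and for the same reason no replicate could be left out. Sparse members (Irf4 and Stat4 in myeloid cells, Stat2 in B and NK cells) and the 11 to 32 CD169-DTR cells of pDC, migratory dendritic cells and cDC1 set the limits of depth.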
